A study of Mus musculus with 7 samples.

Results

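The liver genes described here are the 5 enzymes of the urea cycle (Cps1, Otc, Ass1, Asl and Arg1), the enzyme that makes the activator of the cycle's entry step (Nags), and 4 enzymes that break down single amino acids (Gls2, Sds, Hal and Tdo2). They were taken by gene name from the non-control probes of the arrays, where 13 of 55681 probes carry 1 of these 10 names, out of 36483 gene names in all. The livers came from female C57BL/6 mice, 8 to 12 weeks old and fasted for 24 h, with 3 wild-type (WT) mice and 4 SHIVA mice. SHIVA mice carry a missense mutation in the DNA-binding HMG domain of the transcription factor Sox17. The mutation came from chemical (ENU) mutagenesis, was selected in heterozygous animals and was backcrossed to C57BL/6. By the study's genotyping, every viable mutant mouse was heterozygous. All mice were fasted, and no fed liver was part of the arrays. RNA of each mouse was hybridized to an array of its own without pooling, and n counts mice. Amino acid metabolism was among the pathway groups that the study looked at in this comparison.

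In the urea cycle, liver turns the toxic ammonia released from amino acids into urea. Cps1 and Otc work in the mitochondrion, where Cps1 needs N-acetylglutamate made by Nags, and Ass1, Asl and Arg1 complete the cycle in the cytosol. During a fast, protein from muscle supplies amino acids to the liver, whose carbon skeletons can become glucose. Gls2 releases ammonia from glutamine, Sds turns serine into pyruvate, Hal starts the breakdown of histidine, and Tdo2 starts that of tryptophan. Urea cycle enzymes, Gls2, Sds and Hal are best known from the periportal end of the liver lobule, where blood enters, while glutamine synthetase, encoded by Glul, marks the cells around the central vein.

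Each gene is read by 60-base probes, and 3 of them are shown because they tell which stretch of the transcript the values below come from. The Sds probe lies at chr5:120933105-120933164 on the plus strand, the Cps1 probe at chr1:67276029-67276088 on the plus strand, and the Asl probe between chr5:130487964 and chr5:130488549 on the minus strand, all in the mm9 coordinates of the array files. The ends of the Asl probe lie 586 bases apart in the genome, so that its sequence is split in the genome.
Sds: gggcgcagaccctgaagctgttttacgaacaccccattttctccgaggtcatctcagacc
Cps1: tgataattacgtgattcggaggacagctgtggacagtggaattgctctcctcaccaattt
Asl: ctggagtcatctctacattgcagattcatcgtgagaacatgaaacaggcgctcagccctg
The other probes that stand for a gene in the values below lie at chr10:127646830-127646889 (Gls2), chr10:92979135-92979194 (Hal), chr10:24636194-24636253 (Arg1), chr2:31376068-31376127 (Ass1) and chr11:102009515-102009574 (Nags). Those of Otc and Tdo2 are split like that of Asl, with ends at chrX:9853843-9877490 and chr3:81767918-81770928.

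Values are log2 spot intensities of single-colour Agilent chips after quantile normalization, so that a difference of 1 is a doubling of the signal. An array had 44.5% to 48.7% of its probes well above background, and all 13 probes of the 10 genes were so on all 7 arrays, with 0 saturated spots. The genotypes were compared with limma, and p-values were adjusted by the Benjamini-Hochberg method over 19993 genes. At an adjusted p under 0.05, 75 genes were called, 37 of them higher and 38 lower in SHIVA livers. This number was unstable, at 3 without WT replicate 1 and 415 without WT replicate 3. A single slide carried the 7 arrays, WT in row 1 and SHIVA in row 2, and slide row and genotype therefore cannot be told apart. Sox17 itself was dim, with log2 signals of 4.52, 3.41 and 3.92 in WT livers and 4.62, 4.46, 4.76 and 4.71 in SHIVA livers (adjusted p = 0.279), a level that does not show the mutation. Of the hepatocyte markers, 7 of 7 on the array were above background on the arrays, with summed signals of 868285 to 934680 in WT and 841035 to 893938 in SHIVA livers, while the pancreas markers Prss2, Pnlip and Cpa1 and the kidney markers Umod, Slc12a1 and Nphs1 were not above background on any array. The fourth marker on the array was above background for pancreas (Cela1) on fewer than 3 arrays and for kidney (Slc22a6) on all 7. Summed signals were 16.4 to 20.9 in WT and 9.87 to 18.1 in SHIVA livers for the pancreas list, and 41.3 to 50.8 and 44.7 to 60.5 for the kidney list.

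The signals of the urea cycle enzymes overlapped between genotypes, and those of Gls2, Sds and Hal did not, being higher in each of the 4 SHIVA livers than in each of the 3 WT livers. None of the 10 genes passed the test (0 of 10 called, against 0.375% of all genes tested). With limma, 3 of 10 had an unadjusted p under 0.05, against 13.3% of all genes. The unpaired test that the methods name, though not for the arrays in particular, called 0 of 19993 genes after Benjamini-Hochberg adjustment. Its count of 0 of 10 therefore says nothing about these genes. Signals did not overlap between the genotypes for 3 of 10 genes, all higher in SHIVA livers, against 12.2% of all genes in either direction, with 6.14% higher and 6.02% lower. Without WT replicate 1 the count was 5 of 10, against 21.2% of all genes. The median log2 fold change, SHIVA over WT, was 0.10 over the 10 genes and -0.01 over all genes tested. In whole liver, a change in the share of cells that hold a transcript and a change in its amount per cell cannot be told apart.

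**Figure D1:**
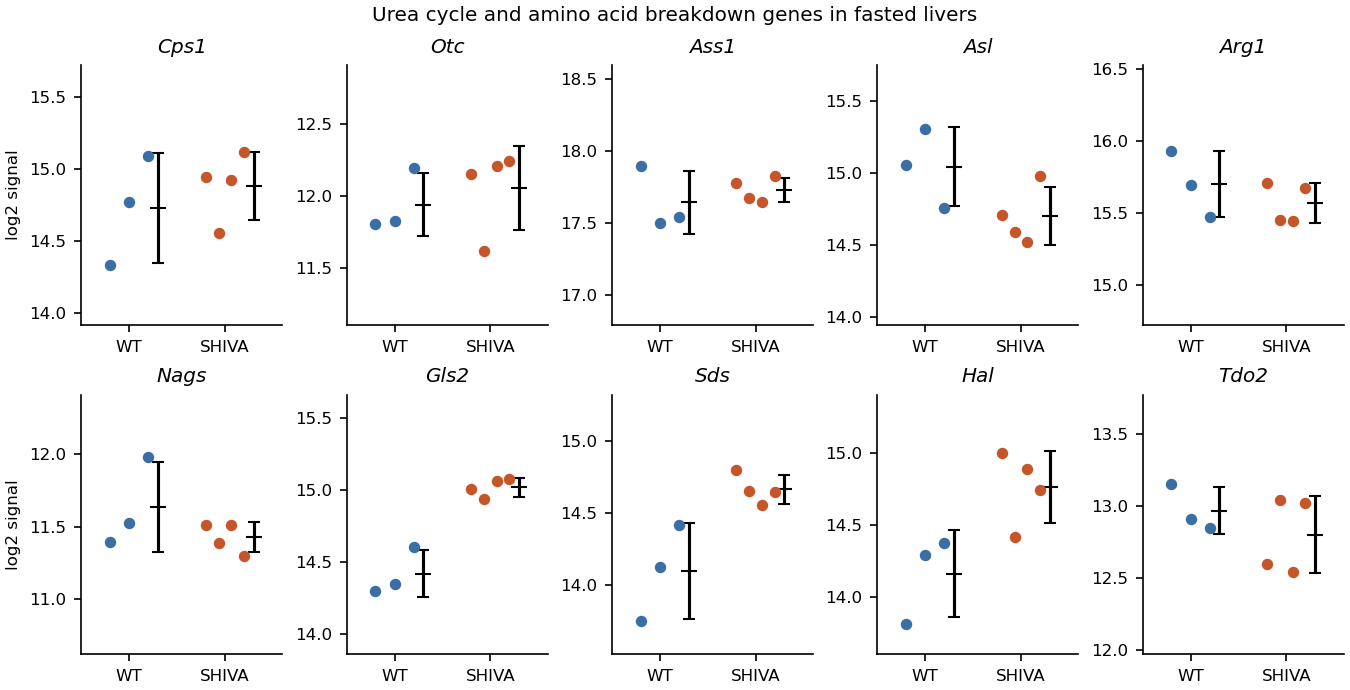
Log2 signal of each of the 10 genes in every mouse, with WT in blue and SHIVA in orange and all panels spanning the same log2 range. Each point is 1 liver, and the bar beside the points gives the mean and SD (n = 3 and 4). The points of the genotypes are apart for Gls2, Sds and Hal and overlap for the other 7 genes.

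Cps1, which fixes ammonia and carbonate into carbamoyl phosphate at the entry of the cycle, had log2 signals of 14.33, 14.77 and 15.09 in WT livers and 14.94, 14.55, 14.93 and 15.12 in SHIVA livers. The SHIVA values lay within or just above the WT range, and the WT livers spread over more than the SHIVA livers did. The log2 fold change was 0.15 (SE 0.22, 95% interval -0.34 to 0.64, adjusted p = 0.812 with limma), and it was -0.047 without WT replicate 1 and 0.33 without WT replicate 3.

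Otc, which joins carbamoyl phosphate to ornithine, had log2 signals of 11.81, 11.83 and 12.20 in WT livers and 12.16, 11.62, 12.21 and 12.24 in SHIVA livers. SHIVA replicate 2 was the lowest of all 7 livers and the other 3 SHIVA livers lay close together near the highest WT liver. The log2 fold change was 0.11 (SE 0.20, 95% interval -0.34 to 0.57, adjusted p = 0.852 with limma), and over the alternatives it ran from 0.047 without WT replicate 1 to 0.26 without SHIVA replicate 2. This probe is printed on 10 spots of each array, and the SD of the log2 signal over these spots was between 0.029 and 0.082, below the SD of 0.22 between WT livers and of 0.29 between SHIVA livers. A second Otc probe at chrX:9897267-9897326 gave 11.71, 11.56 and 11.69 in WT livers and 11.80, 11.75, 11.92 and 11.91 in SHIVA livers. With that probe the genotypes did not overlap, and its log2 fold change of 0.19 had a 95% interval of -0.11 to 0.50 (adjusted p = 0.597 over single probes with limma). The order of the livers for Otc therefore depended on the probe.

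Ass1, which condenses citrulline with aspartate and brings in the other nitrogen of urea, had log2 signals of 17.90, 17.50 and 17.54 in WT livers and 17.78, 17.68, 17.65 and 17.83 in SHIVA livers. WT replicate 1 was the highest and the other 2 WT livers the lowest of all. The log2 fold change was 0.09 (SE 0.15, 95% interval -0.26 to 0.43, adjusted p = 0.853 with limma), and a second probe beside the first gave 0.19 with a 95% interval of -0.19 to 0.58, also with overlapping genotypes. Without WT replicate 1 the first probe gave 0.21, and without WT replicate 2 it gave 0.013.

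Asl, which splits argininosuccinate into arginine and fumarate, had log2 signals of 15.06, 15.31 and 14.76 in WT livers and 14.71, 14.59, 14.52 and 14.98 in SHIVA livers. Of the SHIVA livers, 3 lay below every WT liver and replicate 4 lay among them. The log2 fold change was -0.34 (SE 0.18, 95% interval -0.76 to 0.08, adjusted p = 0.474 with limma), and it was -0.21 without WT replicate 2. Arg1, which releases urea from arginine, had log2 signals of 15.93, 15.70 and 15.47 in WT livers and 15.71, 15.45, 15.45 and 15.67 in SHIVA livers, a narrow band with both genotypes mixed. Its log2 fold change was -0.13 (SE 0.16, 95% interval -0.50 to 0.24, adjusted p = 0.781 with limma), and it was -0.015 without WT replicate 1 and -0.24 without WT replicate 3.

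Over the 5 cycle enzymes the log2 fold changes were above 0 for 3 and below 0 for 2, with a median of 0.09 against -0.01 for all genes tested. The widest of the 5 intervals reached 0.76 in size on the log2 scale, or 1.69-fold, so that a difference of 2-fold or more lay outside the 95% interval of each enzyme. Smaller differences were not excluded by 3 against 4 livers. Nags gave 11.39, 11.53 and 11.98 in WT livers and 11.51, 11.39, 11.51 and 11.29 in SHIVA livers, where WT replicate 3 stood above the rest. Its log2 fold change was -0.21 (SE 0.17, 95% interval -0.61 to 0.19, adjusted p = 0.666 with limma), and it was -0.033 without WT replicate 3 and -0.33 without WT replicate 1.

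**Figure D2:**
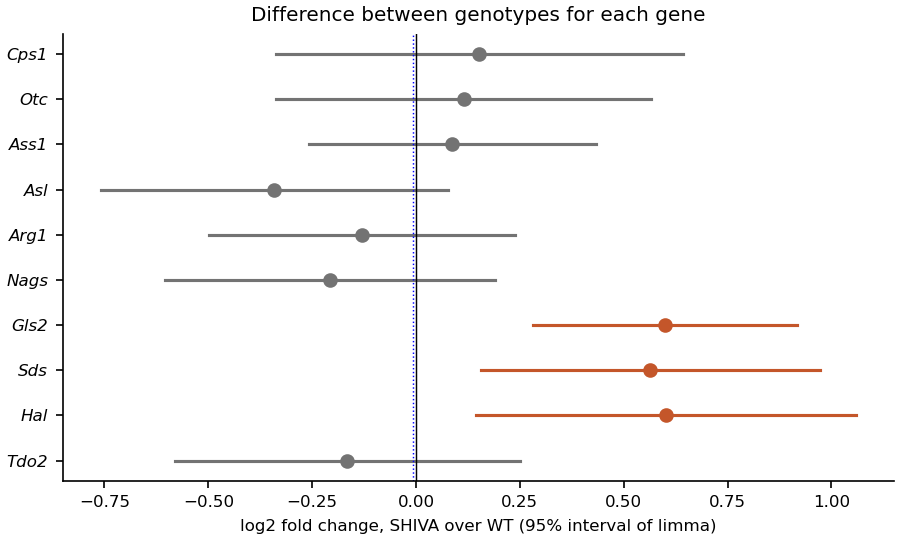
Log2 fold change, SHIVA over WT, of the 10 genes, with the 95% interval of limma as a horizontal line. Genes whose genotypes do not overlap are in orange, and the dotted line is the median of all genes tested, at -0.01. The intervals of Gls2, Sds and Hal lie above 0 and those of the other 7 genes include 0.

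Gls2, the glutaminase of the adult liver, had log2 signals of 14.30, 14.35 and 14.60 in WT livers and 15.00, 14.93, 15.06 and 15.08 in SHIVA livers. The SHIVA livers lay close to each other, and the lowest of them stood above the highest WT liver. WT livers averaged 14.42 ± 0.16 (SD, n = 3) and SHIVA livers 15.02 ± 0.06 (SD, n = 4), and the log2 fold change was 0.60 (SE 0.14, 95% interval 0.28 to 0.92), or 1.52-fold. Its unadjusted p ranked 319 of 19993 and its adjusted p was 0.140 with limma. Gls2 was called in 1 of 18 alternatives, with arrays weighted by their quality (adjusted p = 0.0497), and adjusted p-values over the alternatives ranged up to 0.362.

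Sds, which removes the amino group of serine and leaves pyruvate, had log2 signals of 13.76, 14.13 and 14.42 in WT livers and 14.80, 14.66, 14.56 and 14.65 in SHIVA livers. The WT livers were spread wider than the SHIVA livers, with WT replicate 3 nearest to them. WT livers averaged 14.10 ± 0.33 (SD, n = 3) and SHIVA livers 14.66 ± 0.10 (SD, n = 4), and the log2 fold change was 0.56 (SE 0.18, 95% interval 0.16 to 0.97), or 1.48-fold, with an adjusted p of 0.238 with limma. It was 0.39 at the lowest and 0.72 at the highest over the alternatives.

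Hal, histidine ammonia-lyase, had log2 signals of 13.82, 14.29 and 14.38 in WT livers and 15.00, 14.42, 14.89 and 14.75 in SHIVA livers. SHIVA replicate 2 lay only just above WT replicate 3, and the other 3 SHIVA livers lay further up. WT livers averaged 14.16 ± 0.30 (SD, n = 3) and SHIVA livers 14.76 ± 0.25 (SD, n = 4), and the log2 fold change was 0.60 (SE 0.20, 95% interval 0.14 to 1.06), or 1.52-fold, with an adjusted p of 0.254 with limma. A second Hal probe, designed on another transcript of the gene and lying at chr10:92981534-92981593, gave 11.61, 12.25 and 12.06 in WT livers and 12.49, 12.51, 12.05 and 12.62 in SHIVA livers. There SHIVA replicate 3 fell among the WT livers, and the log2 fold change was 0.45 with a 95% interval of -0.03 to 0.92.

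Tdo2, tryptophan dioxygenase, had log2 signals of 13.15, 12.91 and 12.85 in WT livers and 12.60, 13.04, 12.55 and 13.02 in SHIVA livers. SHIVA replicates 1 and 3 lay below the WT livers and replicates 2 and 4 among them, the only breakdown enzyme of the 4 with a log2 fold change below 0, at -0.17 (SE 0.18, 95% interval -0.58 to 0.25, adjusted p = 0.752 with limma). It was -0.074 without WT replicate 1 and -0.27 with array weights. Over the 4 breakdown enzymes the median log2 fold change was 0.58, against 0.09 over the 5 cycle enzymes. The difference between these medians was not tested. Fitted to single probes, limma called 0 of the 13 probes of the 10 genes, against 0.232% of 26256 probes.

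Between genes, likeness of pattern was measured as the root mean square difference of the log2 signals over the 7 livers, after the mean of each gene was subtracted. Cps1 and Otc were each other's nearest of the 10 genes (0.139), as were Ass1 and Arg1 (0.137) and Gls2 and Sds (0.139). Hal was nearest to Sds (0.168), Asl to Arg1 (0.188), Tdo2 to Arg1 (0.205) and Nags to Otc (0.257). These distances share the same 7 livers and arrays and are given as a description. The mean subtracted was that over both genotypes, so genes with like log2 fold changes lie nearer to each other by this measure. For Hal, whose log2 fold change was the highest of the 10 but all but equal to that of Gls2, and was below that of Sds or Gls2 in some alternatives, the nearest of 19951 genes with a value on every array was Amdhd1 (0.0493), which encodes the imidazolonepropionase of the same pathway and is the next protein-coding gene after Hal in the GRCm38.p6 annotation. A long noncoding transcript, named in the files only by its place on chromosome 5, came next (0.0633), followed by Cbs (0.0709), the cystathionine beta-synthase of methionine breakdown.

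Histidine breakdown runs from Hal through Uroc1, urocanase, and Amdhd1 to Ftcd, the enzyme that passes the last one-carbon unit to tetrahydrofolate. All 4 genes had higher signals in each SHIVA liver than in each WT liver, and their median log2 fold change was 0.51, while 0 of 4 were called. The second Hal probe, described above, had overlapping genotypes. Of all genes tested 6.14% were higher without overlap. The 4 genes were not brought together without regard to their values, so their count cannot be set against this share. Amdhd1 gave 10.87, 11.27 and 11.42 in WT livers and 11.95, 11.50, 11.96 and 11.71 in SHIVA livers. As for Hal, WT replicate 1 was the lowest WT liver and SHIVA replicate 2 the lowest SHIVA liver, and the log2 fold change was 0.60 (95% interval 0.16 to 1.03, adjusted p = 0.242 with limma). Ftcd gave 14.40, 14.25 and 14.39 in WT livers and 14.74, 14.86, 14.72 and 14.71 in SHIVA livers, with little spread within either genotype and a log2 fold change of 0.41 (95% interval 0.12 to 0.71, adjusted p = 0.236 with limma). Uroc1 gave 12.89, 13.24 and 13.50 in WT livers and 13.51, 13.70, 13.51 and 13.74 in SHIVA livers, where WT replicate 3 all but touched the lowest SHIVA livers. Its log2 fold change was 0.41 (95% interval 0.01 to 0.81, adjusted p = 0.370 with limma), and 0.25 without WT replicate 1. Uroc1 and Ftcd were singled out after their values were seen, and Amdhd1 was named for its log2 fold change.

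**Figure D3:**
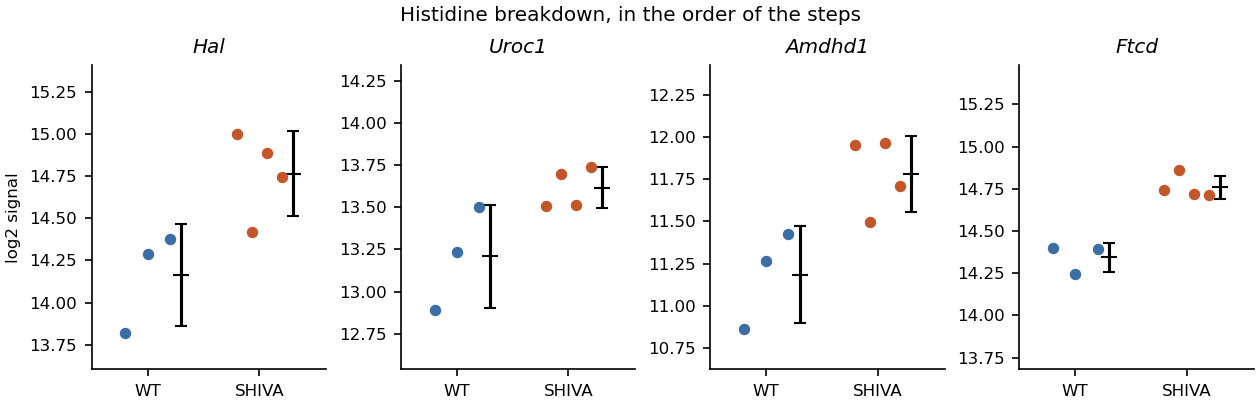
Log2 signal of Hal, Uroc1, Amdhd1 and Ftcd, the 4 steps of histidine breakdown from left to right, in every liver, with the mean and SD beside the points (WT blue, n = 3, and SHIVA orange, n = 4). All panels span the same log2 range, and in each the 4 SHIVA points lie above the 3 WT points, by the least for Uroc1.

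The 250 bases before the start of Hal, at chr10:93488518-93488767 of GRCm38.p6 on the plus strand and taken from RefSeq, are shown because Hal is 1 of the 3 genes without overlap and because 1 of the searched motifs, the Sox core letters ACAAT, is in them (in capitals).
Hal: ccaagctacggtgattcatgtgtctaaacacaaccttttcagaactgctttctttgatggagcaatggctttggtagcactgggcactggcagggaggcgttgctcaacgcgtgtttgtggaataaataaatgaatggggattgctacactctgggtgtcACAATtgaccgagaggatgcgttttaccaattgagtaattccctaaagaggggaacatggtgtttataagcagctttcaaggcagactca
The match ends 86 bases before the start. These 5 letters, on either strand, were in 27.7% of 32851 mouse promoters of the same length, and the match is a description of the window. Promoters of 5 of the 10 genes were in the table of sequences (Ass1, Tdo2, Hal, Nags and Otc). Within the 250 bases of these 5, the cAMP response element TGACGTCA (1.55% of all promoters), its short form TGACG, which also lies inside it (17.8%), the C/EBP site TTGCGCAA (0.164%), the short glucocorticoid form AGAACA (16.1%) and the PPAR element, AGGTCA and again AGGTCA after 1 base (0.0335%), were in 0, and ACAAT in that of Hal only.

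Other genes of amino acid breakdown, nitrogen handling and transport were taken as a list of 87, of which 83 were tested (Slc25a2, Arg2, Aadat and Tdh were too dim). Of these 0 were called, 53 had a log2 fold change above 0 and 30 below, and the median was 0.11, against -0.01 for all genes. Signals did not overlap between genotypes for 16, with 12 higher and 4 lower in SHIVA livers, which is 19.3% of the list against 12.2% of all genes. Unadjusted p-values of limma were under 0.05 for 15 of the 83 genes with higher and 4 of the 83 with lower signals in SHIVA livers. Over all genes these shares were 7.24% and 6.09%. Without WT replicate 3 the genes of the list that did not overlap rose from 16 to 31, while the share over all genes rose from 12.2% to 28.9%.

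**Figure D4:**
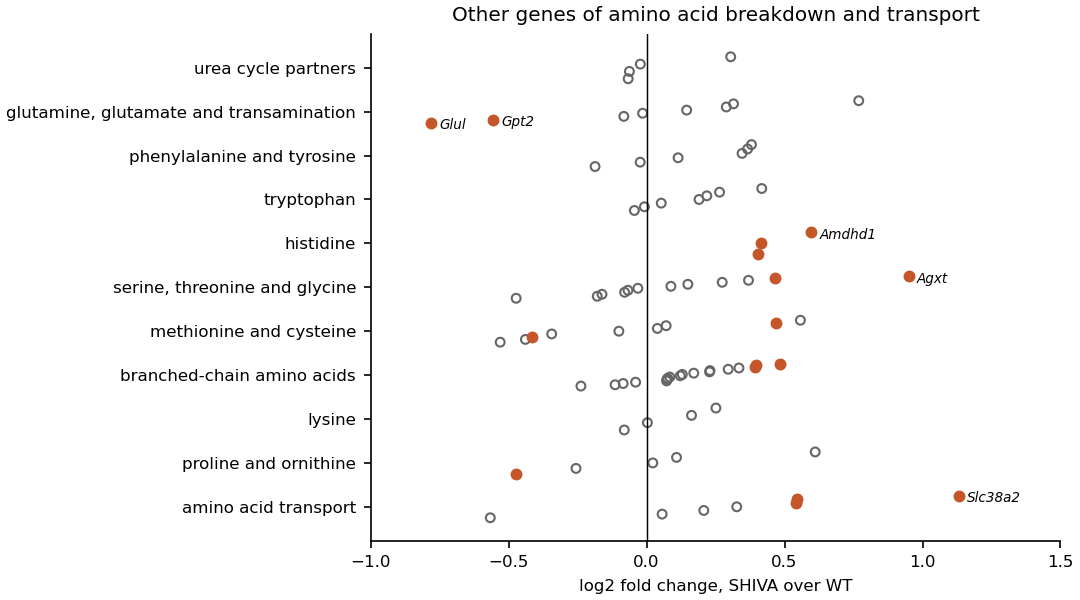
Log2 fold change, SHIVA over WT, of the 83 tested genes of the amino acid list, in rows by the amino acid or step they serve. Filled points are the 16 genes whose genotypes do not overlap, and open points are the others. All 3 points of the histidine row are filled and to the right of 0, and no point of the urea cycle row is filled.

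By route, the partners of the urea cycle (Slc25a15, Slc25a13, Car5a and Agmat) had a median of -0.04 with 0 of 4 without overlap. Around glutamine the list held genes on both sides of 0. Glul, which makes glutamine from ammonia and so runs against Gls2, gave 11.23, 12.09 and 11.98 in WT livers and 11.15, 10.82, 10.97 and 10.98 in SHIVA livers. The SHIVA livers were all lower, with WT replicate 1 close to them, and the log2 fold change was -0.78 (SE 0.22, 95% interval -1.28 to -0.28, adjusted p = 0.206 with limma). Gpt2, the mitochondrial alanine aminotransferase, was lower in each SHIVA liver, with a log2 fold change of -0.56 (SE 0.14, 95% interval -0.88 to -0.23, adjusted p = 0.173 with limma), while Gpt, its cytosolic relative, was at -0.08.

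The largest log2 fold changes of the list were those of Slc38a2, a sodium-coupled carrier of small neutral amino acids, and Agxt, which passes the amino group of alanine to glyoxylate. Slc38a2 gave 10.56, 10.87 and 11.43 in WT livers and 12.10, 11.93, 12.08 and 12.21 in SHIVA livers. The SHIVA livers were close together and clear of the WT livers, and the log2 fold change was 1.13 (SE 0.21, 95% interval 0.65 to 1.61, adjusted p = 0.0779 with limma). Agxt gave 14.49, 14.91 and 15.31 in WT livers and 15.80, 15.95, 15.88 and 15.78 in SHIVA livers. Its log2 fold change was 0.95 (SE 0.20, 95% interval 0.50 to 1.40, adjusted p = 0.112 with limma). Both genes were called in 5 of 18 alternatives, among them the authors' table and the fit without WT replicate 3. The carriers Slc38a4 and Slc7a2, seen to be apart after their values were known, were also higher in each SHIVA liver, at 0.55 and 0.54, and the 7 tested carriers had a median of 0.33. Slc1a2, a glutamate carrier, was the exception among them, at -0.57 with overlapping genotypes, at -0.35 without SHIVA replicate 2 and at -0.37 without WT replicate 3.

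Among the remaining routes, genes for serine, threonine and glycine had a median of 0.03 over 12 genes. Of these 12, 16.7% did not overlap, against 12.2% of all genes in either direction. They were Agxt, described above, and Agxt2, at 0.47, both higher in SHIVA livers. Genes for branched-chain amino acids had a median of 0.13 over 18. Of these 18, Ppm1k, Ivd and Acadsb (16.7%) did not overlap and were higher in SHIVA livers, against the same 12.2%. In the methionine and cysteine route values lay on both sides of 0, with Cbs at 0.56 (adjusted p = 0.285 with limma, genotypes overlapping by WT replicate 3, and 0.37 without WT replicate 1) and Mpst, a sulfur transferase, at -0.53 (adjusted p = 0.398 with limma). There Cth did not overlap and was higher in SHIVA livers, and Cdo1 did not overlap and was lower. Together they are 22.2% of the 9 genes of that route, against the same 12.2%. Of the proline genes, Prodh, the first enzyme of proline breakdown, was lower in each SHIVA liver (-0.47, adjusted p = 0.370 with limma), and Aldh4a1, the enzyme after it, was at 0.61 with overlapping genotypes (adjusted p = 0.302 with limma) and at 0.35 without WT replicate 1. Amt of the glycine cleavage system was at -0.47, and at -0.035 without SHIVA replicate 2. The 7 tryptophan genes after Tdo2 had a median of 0.19 and the 6 phenylalanine and tyrosine genes one of 0.23, each with 0 genes without overlap.

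Since the enzymes differ in their known place along the lobule, 10 other periportal and 11 tested pericentral genes were set beside them, with 0 called in either list. Of the periportal genes 8 of 10 had log2 fold changes above 0, with a median of 0.26. Without overlap were 2 of 10, both higher in SHIVA livers, against 12.2% of all genes in either direction. These were Cdh1, E-cadherin, at 1.40 (SE 0.38, adjusted p = 0.193 with limma) and Etnppl, a phospholyase of phosphoethanolamine, at 1.25 (SE 0.26, adjusted p = 0.114 with limma). Cdh1 was called in 1 of 18 alternatives, without WT replicate 3 (adjusted p = 0.0288 with limma), where 415 genes were called over all genes. Etnppl was called in 2 of 18, among them the authors' table (adjusted p = 0.0349 with limma). Over the alternatives adjusted p-values ranged up to 0.457 for Cdh1 and 0.331 for Etnppl. Of the pericentral genes 8 of 11 had log2 fold changes below 0, with a median of -0.36, and 4 of 11 were without overlap (36.4%), against the same 12.2%. Glul, Lhpp and Cyp2e1 did not overlap and were lower in SHIVA livers, while Slc1a4 did not overlap and was higher, at 0.81 (adjusted p = 0.179 with limma). Without the 3 genes that the pericentral list shares with the amino acid list (Glul, Oat and Slc1a2), its median was -0.33 over 8 tested genes. The urea cycle enzymes, periportal by their usual place, had a median of 0.09.

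**Figure D5:**
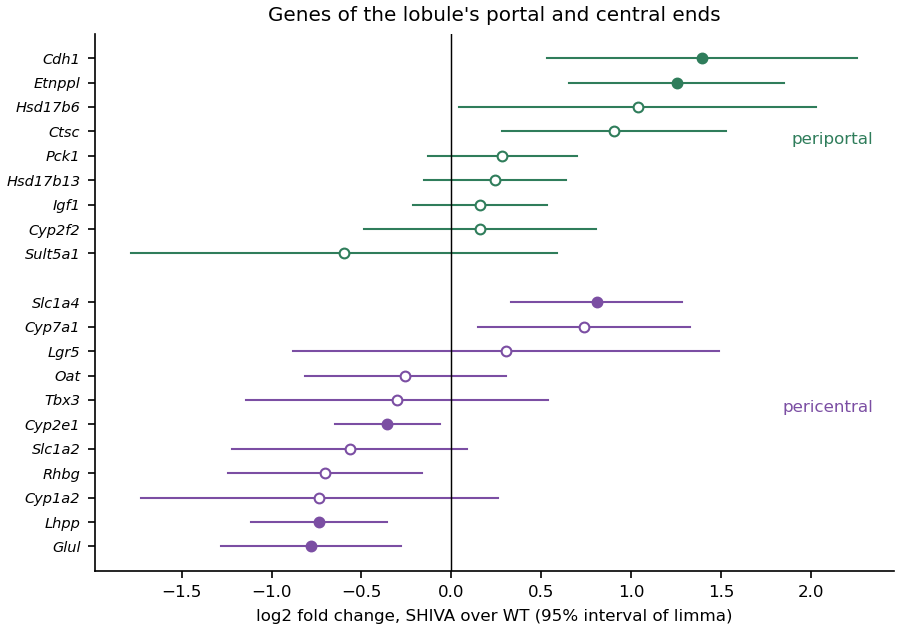
Log2 fold change, SHIVA over WT, of 9 of the 10 periportal genes (green) and of the 11 pericentral genes (purple), with the 95% interval of limma. Filled points mark genes whose genotypes do not overlap. Most green points lie right of 0 and most purple points left of it, with Sult5a1 as an exception in green and Slc1a4, Cyp7a1 and Lgr5 in purple.

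Of 17 known regulators of these pathways or of the fasting response, 16 were tested, 0 were called and 3 did not overlap between genotypes (18.8%, against 12.2% of all genes). Ppara, the fatty acid receptor that drives much of the fasting programme, had log2 signals of 12.19, 12.61 and 12.33 in WT livers and 11.66, 11.75, 11.64 and 11.78 in SHIVA livers. The genotypes did not overlap, and the log2 fold change was -0.67 (SE 0.15, 95% interval -1.01 to -0.33, adjusted p = 0.132 with limma). It was called with array weights (adjusted p = 0.0374), 1 of 18 alternatives, over which adjusted p-values ranged up to 0.341. Nr3c1, the glucocorticoid receptor, and Sirt5, a mitochondrial enzyme that acts on Cps1, also did not overlap, with higher signals in SHIVA livers and log2 fold changes of 0.23 and 0.27, and were named after their values were seen. Gcgr, the glucagon receptor, was at -0.18 with overlapping genotypes.

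Markers of other cells were read in the same livers. Summed signals of the 6 Kupffer cell markers ran from 14343 to 31150 in WT and from 20333 to 47471 in SHIVA livers, and those of the erythroid markers from 43826 to 61751 and from 54076 to 100497, with log2 fold changes above 0 for 3 of 3 tested erythroid markers and no overlap for Alas2. Sums for neutrophil markers were between 979 and 1800 in WT and between 948 and 2739 in SHIVA livers. Cholangiocyte markers summed to 510 to 1568 in WT and 456 to 820 in SHIVA livers, stellate cell markers to 12834 to 14306 and 6653 to 13705, endothelial markers to 9287 to 9869 and 7138 to 9526, and lymphocyte markers to 1817 to 1884 and 1722 to 1971. Such sums rest mostly on the brightest markers, as on Dcn for stellate cells (log2 fold change -0.40) and Kdr for endothelial cells (-0.29). Log2 fold changes were above 0 for 6 of 6 Kupffer cell markers and 4 of 5 neutrophil markers. They were below 0 for 3 of 4 tested cholangiocyte markers. In these 3 lists the genotypes overlapped for every tested marker. In the stellate and endothelial lists single markers went both ways. Of 5 stellate markers 2 had log2 fold changes above 0 and 3 below, with Rgs5 higher (0.67) and Des lower (-0.24) in each SHIVA liver. Of 5 endothelial markers 3 were above 0 and 2 below. Of the 7 hepatocyte markers 2, Ttr and Ahsg, were lower in each SHIVA liver, at -0.32 and -0.07 on the log2 scale. Without overlap were thus 2 of 7 hepatocyte, 2 of 5 stellate and 1 of 3 tested erythroid markers. Over all genes tested 12.2% did not overlap in either direction, with 6.14% higher and 6.02% lower in SHIVA livers. The lists are short, and their counts were not tested against these shares. None of the marker genes was called by limma, and the part of other cells in the higher signals of Gls2, Sds and Hal was not tested.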

How the data were processed

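Per the labels, livers of 3 WT and 4 SHIVA mice were profiled with 1 array per mouse. The authors deposited the scanner output of Agilent Feature Extraction 10.5.1.1 (from the submitters' processing notes), whose intensity values per spot are not normalized between arrays, and a table of log2 values that the authors quantile normalized in R. In that table the rank order equals that of the mean spot signal on every array (rank correlation 1) and column medians are 5.30.

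From the processed intensities, 120 to 163 spots per array flagged as uneven or deviant were left out. The rest was put on the log2 scale, quantile normalized and averaged per probe, in R 4.3.3 with limma 3.58.1. RefSeq for GRCm38.p6 named 26521 of 55681 probes, the others kept the array's name, and a gene was read from its brightest probe on average. Genes well above background on at least 3 of 7 arrays were fitted with limma (lmFit and eBayes) and Benjamini-Hochberg adjustment, and called at an adjusted p under 0.05. The number of arrays limits the precision. The fit was tested on simulated data.

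The genes, lists and tests were chosen with earlier results of these data known. Named in full were the 10 genes, the 6 highest and 6 lowest log2 fold changes of the amino acid list, and the 2 largest of each other list, except that 1 gene of the amino acid list and 1 of the periportal list are not reported here. Alternatives were the authors' table, mean signals left uncorrected for background, normexp (offset 50), 75th percentile scaling, dropping the filter or asking for all 7 arrays, averaging a gene's probes, quality weights per array, a block for the replicate number, an intensity trend, the methods' t-test and each mouse left out. A batch term could not be fitted.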

Additional observations from a re-analysis of the deposited data

Results flagged for a closer look

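In the 4 SHIVA livers, 3 of the 29 genes searched had a liver far from the other 3. By chance 1 in 20 groups of this size passes, which would be about 1.45 of 29 genes picked without regard to their values. Apart from the 10 genes described, those searched were named for their log2 fold changes or after their values were seen. A single low SHIVA liver can bring a gene into that set, so the count cannot be set against this rate. In each of the 3 genes the far liver was SHIVA replicate 2, below the others. The gap to the nearest liver took up more of the range of the group than Dixon's critical share. For Otc the share was 0.859, with SHIVA replicate 2 at a log2 signal of 11.62 and the others between 12.16 and 12.24. For Slc1a2 it was 0.866, with 9.65 against 10.44 to 10.57, and for Amt 0.921, with 5.55 against 7.25 to 7.39.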

How the results depend on the processing

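Of the 10 genes, 1 (Gls2) was called with array weights and 0 in the other alternatives, including each fit without 1 mouse (0 to 0), and 0 of their 13 probes were called in any. Genes without overlap numbered 3 to 5 with 1 mouse left out, with 5 without WT replicate 1 against a background of 21.2%. Cps1 ranged from -0.047 to 0.33 with 1 mouse left out, and its sign was reversed at -0.047 without WT replicate 1. The other 9 kept their direction in 18 alternatives. In the amino acid list, Agxt and Slc38a2 (2 genes) were called with the mean signal, the authors' table, array weights and the intensity trend, and 0 to 2 genes with 1 mouse left out. Without overlap were 16 to 31 genes of that list, 12 to 25 of them higher, with 1 mouse left out. The most were without WT replicate 3, where 14.6% of all genes were higher without overlap. Of the zonation genes 1 was called with the mean signal and the authors' table, and 0 to 1 with 1 mouse left out. Over all genes the calls numbered 143 with the mean signal, 143 with the authors' table, 13 without a filter, 306 with array weights, 135 with the intensity trend, 0 with the methods' t-test (2297 at an unadjusted p under 0.05) and 3 to 415 with 1 mouse left out. The cause of these changes was not tested. With the replicate number as a block 32 genes were called over all genes and 0 of the 10 genes described. Deviations of WT and SHIVA mice with the same number correlated at -0.049, 0.013 and 0.236, and those with unlike numbers at -0.196 to 0.203. The value of 0.236 thus lay above the range of the unlike numbers. The labels do not say whether mice with the same number belong together, and the numbers were not taken as pairs. WT replicate 3 was the highest WT liver for 6 of the 10 genes, the lowest for 3 and in the middle for 1. With 3 against 4 livers, differences smaller than the intervals given cannot be seen.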
